A study of Homo sapiens with 8 samples.

Results

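Expression of 10 genes in common use as markers of the Müllerian lineage or of ovarian carcinoma was examined in the human ovarian cancer line UWB1.289. They were PAX8, WT1, SOX17 and EMX2 (lineage factors), MUC16 and MUC1 (mucins), MSLN, FOLR1 and EPCAM (surface proteins) and WFDC2 (a secreted protein). The genes were chosen by name and matched by symbol, and all 10 were present among the 25369 named genes of the deposited count table. Of these, 9 passed the filter on low counts and were tested together with 17705 other genes, and EMX2 did not pass.

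RNA was sequenced after poly(A) selection in 8 libraries that formed 4 groups of 2. The cells were UWB1.289, which carries a BRCA1 mutation (BRCA1-null), or the same line transduced with BRCA1 (BRCA1+), and each was exposed for 24 h to the DMSO vehicle (control) or to 0.5 uM entinostat, an inhibitor of class I histone deacetylases. The comparisons ask how the presence of functional BRCA1 and the inhibition of histone deacetylases change the expression of these markers. Each genotype was represented by 1 line, so that a difference due to BRCA1 and any other difference between the lines cannot be told apart. Whether the libraries of a group came from separate cultures was not stated, and the p-values therefore measure the spread between these libraries, which may be technical.

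The Müllerian ducts are the embryonic source of the oviduct, uterus and upper vagina, and their epithelium is patterned by transcription factors that include the paired-box protein PAX8, the homeobox protein EMX2 and the SRY-related protein SOX17. High grade serous ovarian carcinomas commonly keep PAX8 and WT1, a zinc-finger factor that is also expressed in mesothelium, and this pair is used in pathology to assign a tumour to this origin. The cell surface of these carcinomas often carries MUC16 (the CA125 antigen), MUC1, the mesothelin precursor MSLN, the folate receptor FOLR1 and the adhesion molecule EPCAM, and the small protein WFDC2 (HE4) is released into serum and measured as a tumour marker.

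The libraries held between 31900158 and 53549893 counts. The upper limit that a count of 0 allows, 3 counts, corresponded to 0.0552 to 0.0946 CPM (counts per 1e+06, from the deposited counts scaled to the effective library size), and this limit covers counting error only. BRCA1 itself was at 92.3 to 133 CPM in the 4 BRCA1+ libraries and at 17.6 to 22.4 CPM in the 4 BRCA1-null libraries, as the labels require, and the remaining BRCA1-null counts do not tell functional from mutated transcript. The counts of 2 libraries of one group differed by more than sampling noise in every group (chi-square over its degrees of freedom 8.56 to 14.5), so all 8 were used as separate libraries. A gene was called at a Benjamini-Hochberg adjusted p-value under 0.05 in edgeR's quasi-likelihood test, which was fitted once to all 17714 tested genes.

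The markers spanned from among the highest genes of these cells to the floor. Per length of the gene, mean levels in CPM per kb over the 8 libraries were 314 for EPCAM, 89.8 for PAX8, 45.5 for MSLN, 37.9 for SOX17, 23.2 for MUC1, 12.1 for WFDC2, 3.45 for FOLR1, 2.76 for MUC16, 0.0728 for WT1 and 0.00511 for EMX2. EPCAM thus lay at percentile 98.7 of the tested genes, PAX8 at 94.8, MSLN at 89.4 and SOX17 at 87.1. The ranges over the 8 libraries did not overlap between EPCAM and PAX8, between PAX8 and MSLN, or between MUC16 and WT1, and every other neighbour in this order overlapped with the next. MUC16 stood high in CPM (78.1 to 203) and low per length because its listed transcript is 43816 bases long, whereas that of WFDC2 is 566 bases.

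As a check of these cells against Müllerian lineage markers, 2 of the 4 lineage factors were abundant and the other 2 were at or close to the floor. PAX8 had between 329 and 419 CPM and SOX17 between 80.2 and 99.6 CPM in the 8 libraries. WT1 had 20 and 13 counts in the BRCA1+ libraries with DMSO and 15 and 17 with entinostat, and 4 and 1 in the BRCA1-null libraries with DMSO and 6 and 3 with entinostat. EMX2 had 0 to 2 counts per library, with 0 in 4 of the 8 libraries. Its observed count thus lay under 3 counts, the limit that a count of 0 allows, in every library.

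**Figure D1:**
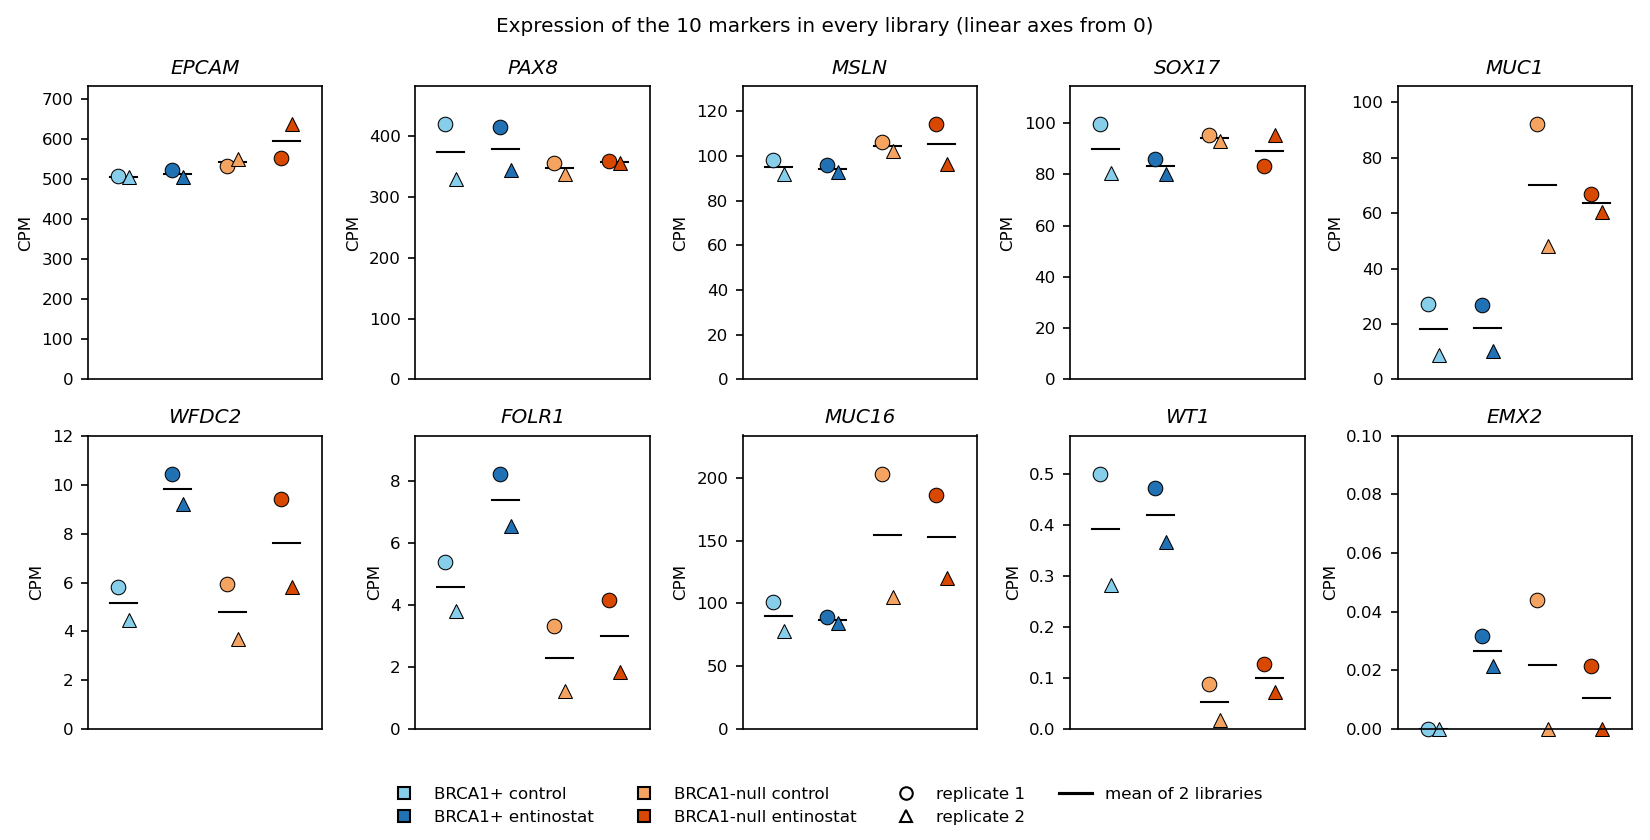
Expression of the 10 markers in every library, in CPM on linear axes that start at 0, ordered by level per length. Circles are replicate 1, triangles replicate 2 and lines the mean of 2 libraries. MUC1, MUC16, WT1 and, by a small step, EPCAM separate the lines. EPCAM, PAX8, MSLN and SOX17 stay within 1.27-fold over all 8 libraries. WFDC2 stands higher in both BRCA1+ entinostat libraries than in both of their controls.

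Windows upstream of the start, taken from RefSeq (GRCh38.p14), were examined for 6 of the 10 markers and not for SOX17, MSLN, FOLR1 and EPCAM. Those of MUC1, WT1 and WFDC2, which were called in at least 1 comparison, and of PAX8, which was called in none, are shown, and each ends within 4 bases of the start that the deposited table gives. Each is the 250 bases before the start, written 5′ to 3′ on the strand of the gene, with GC boxes (GGGCGG on either strand) in capitals. The window of MUC1 is chr1:155192916-155193165 (minus strand), that of WT1 chr11:32435540-32435789 (minus strand), that of WFDC2 chr20:45469503-45469752 (plus strand) and that of PAX8 chr2:113278922-113279171 (minus strand).
MUC1: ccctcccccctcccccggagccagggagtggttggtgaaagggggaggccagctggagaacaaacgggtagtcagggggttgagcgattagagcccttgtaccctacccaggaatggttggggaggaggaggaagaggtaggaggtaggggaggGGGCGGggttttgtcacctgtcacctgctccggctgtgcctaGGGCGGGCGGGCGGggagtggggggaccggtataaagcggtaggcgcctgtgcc
WT1: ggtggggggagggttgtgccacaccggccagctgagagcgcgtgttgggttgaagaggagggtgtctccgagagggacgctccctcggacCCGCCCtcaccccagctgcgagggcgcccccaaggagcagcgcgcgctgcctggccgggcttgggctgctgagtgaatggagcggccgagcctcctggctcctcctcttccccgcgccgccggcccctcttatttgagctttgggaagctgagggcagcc
WFDC2: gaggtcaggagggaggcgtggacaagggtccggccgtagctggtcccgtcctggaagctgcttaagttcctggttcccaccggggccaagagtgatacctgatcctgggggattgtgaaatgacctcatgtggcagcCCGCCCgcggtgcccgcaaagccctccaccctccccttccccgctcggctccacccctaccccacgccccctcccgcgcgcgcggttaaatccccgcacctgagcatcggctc
PAX8: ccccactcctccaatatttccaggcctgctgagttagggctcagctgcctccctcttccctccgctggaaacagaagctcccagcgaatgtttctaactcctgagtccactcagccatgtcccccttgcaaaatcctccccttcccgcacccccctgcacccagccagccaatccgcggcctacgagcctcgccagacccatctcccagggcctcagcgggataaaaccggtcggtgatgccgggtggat

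GC boxes, the letters read by SP-family factors, were present 4 times in the MUC1 window, where 3 of them overlap in one run, and once each in the WT1 and WFDC2 windows. PAX8 held none and had 2 CCAAT letters instead, at bases -240 and -82. The letters TATAAA were found in the MUC1 window at base -24, shortly before the start. Of all 35116 RefSeq windows of this length, 42.6% hold at least 1 GC box, 32.0% a CCAAT and 10.7% a TATAAA, counted on both strands. G and C made up 66.0% of the MUC1 window, 70.4% of the WT1 window, 67.2% of the WFDC2 window and 61.6% of the PAX8 window.

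In DMSO, the lines differed in MUC1, which was higher in BRCA1-null cells, and in WT1, which was lower there. These 2 of 9 tested markers were called, 1 in each direction, beside 42.2% of all genes tested (21.1% higher in BRCA1-null cells and 21.0% lower). The median log2 difference was 0.067 over the 9 markers and 0.012 over all tested genes. In entinostat 4 of 9 were called, MUC1 and EPCAM higher and WT1 and FOLR1 lower, against 39.4% of all genes (20.5% higher and 18.9% lower). The median there was 0.10 for the markers and 0.019 for all genes. The DESeq2 Wald test called only EPCAM of these in entinostat, with adjusted p-values of 0.109 for WT1, 0.0535 for MUC1 and 0.105 for FOLR1.

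PAX8, on chromosome 2 (hg19, 113973574 to 114036498, minus strand), showed no called difference between the lines. It had 419 and 329 CPM in the BRCA1+ libraries with DMSO and 414 and 343 with entinostat, and 356 and 337 in the BRCA1-null libraries with DMSO and 358 and 355 with entinostat, and the groups overlapped. The log2 difference of BRCA1-null from BRCA1+ was -0.11 in DMSO (SE 0.114, 95% interval -0.37 to 0.15, adjusted p = 0.470) and -0.086 in entinostat (interval -0.34 to 0.17, adjusted p = 0.596). The antisense gene PAX8-AS1, which overlaps PAX8, had 2266 to 2957 counts per library, and reads from an overlapping antisense gene cannot be told apart where strand was not used in counting, which the sources do not state.

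SOX17, an endoderm and endothelial factor that also acts in the Müllerian epithelium, lies on chromosome 8 (hg19, 55370495 to 55373456, plus strand). Its levels were 99.6 and 80.4 CPM in the BRCA1+ libraries with DMSO and 86.2 and 80.2 with entinostat, and 95.6 and 92.9 in the BRCA1-null libraries with DMSO and 83.1 and 95.4 with entinostat. No group stood apart. The log2 difference between the lines was 0.067 in DMSO (interval -0.17 to 0.30, adjusted p = 0.633) and 0.10 in entinostat (interval -0.13 to 0.34, adjusted p = 0.481).

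WT1, on chromosome 11 (hg19, 32409322 to 32457081, minus strand), was lower in all 4 BRCA1-null libraries than in any BRCA1+ library, at 0.0184 to 0.128 CPM against 0.283 to 0.500 CPM. The log2 difference was -2.87 in DMSO (SE 0.662, adjusted p = 0.00652) and -1.98 in entinostat (SE 0.587, adjusted p = 0.0225). These fits rest on few reads and depend on the prior count. Summed over the 2 libraries of each group, 33 counts in BRCA1+ control stood against 5 in BRCA1-null control, a ratio of 7.67 (95% counting interval 2.98 to 25.2), and 32 stood against 9 in entinostat, a ratio of 4.04 (1.88 to 9.61). Without replicate 2 of BRCA1-null control, which had 1 count, the DMSO difference was -2.09 with an adjusted p of 0.0574. The call in entinostat was lost when any 1 of its 4 libraries was left out (-2.47 to -1.66, adjusted p 0.0557 without BRCA1-null entinostat replicate 1, 0.0595 without BRCA1+ entinostat replicate 2, 0.0846 without BRCA1+ entinostat replicate 1 and 0.109 without BRCA1-null entinostat replicate 2). The overlapping WT1-AS had 7 to 34 counts per library and was not called in either comparison of the lines. Among the 20 tested genes nearest to WT1, 10 on each side, 1 was higher and 6 were lower in BRCA1-null control. Their median log2 difference was -0.21, and of all tested genes 21.1% were higher and 21.0% lower.

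EMX2 was not tested. Its antisense neighbour EMX2OS, which overlaps it on chromosome 10 (hg19, 119301956 to 119309057 for EMX2), had 64 to 268 counts per library, and without strand in counting reads of their shared stretch cannot be told apart. EMX2OS was higher in BRCA1-null control than in BRCA1+ control (log2 difference 1.00, SE 0.277, adjusted p = 0.0172), and was not called between the lines in entinostat (-0.12, adjusted p = 0.816). With entinostat it was lower in BRCA1-null cells (-1.05, SE 0.277, adjusted p = 0.0431) and not called in BRCA1+ cells (0.067, adjusted p = 0.928). The entinostat response of EMX2OS was not called as different between the lines. It had 2.23 and 1.83 CPM in BRCA1+ control and 2.08 and 2.13 in BRCA1+ entinostat. BRCA1-null control had 3.03 and 4.93 CPM and BRCA1-null entinostat 2.32 and 1.53. How far both calls rest on BRCA1-null control replicate 2, the highest library, was not tested.

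MUC1, a transmembrane mucin of glandular epithelia on chromosome 1 (hg19, 155158300 to 155162706, minus strand), had the largest positive log2 difference between the lines of the 9 tested markers, in DMSO as in entinostat. It had 27.2 and 9.0 CPM in the BRCA1+ libraries with DMSO and 26.8 and 10.2 with entinostat, and 92.1 and 48.2 in the BRCA1-null libraries with DMSO and 66.9 and 60.3 with entinostat. All 4 BRCA1-null libraries lay above all 4 BRCA1+ libraries, although the 2 libraries of BRCA1+ control differed 3.02-fold from each other. The log2 difference was 1.97 in DMSO (SE 0.502, 95% interval 0.84 to 3.10, adjusted p = 0.0119) and 1.84 in entinostat (SE 0.513, interval 0.68 to 3.00, adjusted p = 0.0187).

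The MUC1 call depended on which libraries were used, while its direction did not. In DMSO it was lost without BRCA1+ control replicate 2 (1.36, adjusted p = 0.0706) and without BRCA1-null control replicate 1 (1.46, adjusted p = 0.0653). In entinostat it was lost without BRCA1+ entinostat replicate 2 (1.24, adjusted p = 0.142) and without BRCA1-null entinostat replicate 1 (1.76, adjusted p = 0.0611). Among the 20 tested genes around MUC1, 5 were higher and 1 was lower in BRCA1-null control, with a median of 0.13. Around PAX8, 4 were higher and 5 lower, around SOX17 6 and 1, around EMX2 4 and 6 and around MUC16 1 and 3. Around MSLN they were 1 and 1, around FOLR1 7 and 3, around EPCAM 3 and 3 and around WFDC2 1 and 2. Whether markers and their neighbours differ together was not tested. The very long listed spans of SRGAP2D and FAM72C enclose MUC1 in the deposited table.

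MUC16, the giant membrane mucin that carries CA125, lies on chromosome 19 (hg19, 8959520 to 9092018, minus strand). It had 101 and 78.1 CPM in the BRCA1+ libraries with DMSO and 89.0 and 84.8 with entinostat, and 203 and 105 in the BRCA1-null libraries with DMSO and 186 and 120 with entinostat. The BRCA1-null libraries were all above the BRCA1+ libraries, with replicate 1 up to 1.94 times replicate 2 in BRCA1-null cells. The log2 difference missed the threshold with either treatment, at 0.78 in DMSO (SE 0.289, interval 0.13 to 1.43, adjusted p = 0.0552) and 0.82 in entinostat (SE 0.291, interval 0.16 to 1.48, adjusted p = 0.0501). Leaving out BRCA1-null control replicate 2 brought it to 1.18 in DMSO (adjusted p = 0.00462), and leaving out BRCA1-null entinostat replicate 2 brought it to 1.10 in entinostat (adjusted p = 0.0256). It also passed in DMSO without BRCA1-null entinostat replicate 1 (0.78, adjusted p = 0.0397) or 2 (0.78, adjusted p = 0.0396), and in entinostat without BRCA1-null control replicate 1 (0.81, adjusted p = 0.00948) or 2 (0.82, adjusted p = 0.00921). With upper-quartile factors the DMSO value was 0.82 (adjusted p = 0.0491), and in a fit of only the groups compared both treatments passed, DMSO with 0.78 (adjusted p = 0.0480) and entinostat with 0.81 (adjusted p = 0.00504).

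FOLR1, the folate receptor that several antibody conjugates target, lies on chromosome 11 (hg19, 71900602 to 71907367, plus strand) and had low levels. They were 5.38 and 3.81 CPM in the BRCA1+ libraries with DMSO and 8.23 and 6.55 with entinostat, and 3.32 and 1.23 in the BRCA1-null libraries with DMSO and 4.16 and 1.84 with entinostat. The lines did not overlap within either treatment, but BRCA1-null replicate 1 with entinostat lay above BRCA1+ control replicate 2. FOLR1 was lower in BRCA1-null cells in entinostat (log2 difference -1.25, SE 0.395, adjusted p = 0.0315), and the difference in DMSO was -1.05 (SE 0.441, interval -2.05 to -0.056, adjusted p = 0.0836). With the replicate block it was called in DMSO (-1.06, adjusted p = 0.00674) as in entinostat (-1.34, adjusted p = 0.000959). The entinostat call was lost without BRCA1+ entinostat replicate 1 (-1.11, adjusted p = 0.123), BRCA1+ entinostat replicate 2 (-1.43, adjusted p = 0.0701) or BRCA1-null entinostat replicate 2 (-0.81, adjusted p = 0.156), and the DMSO difference passed without BRCA1-null control replicate 1 (-1.86, adjusted p = 0.0168).

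EPCAM, an epithelial adhesion molecule on chromosome 2 (hg19, 47596287 to 47614167, plus strand), had 508 and 506 CPM in the BRCA1+ libraries with DMSO and 522 and 507 with entinostat, and 534 and 552 in the BRCA1-null libraries with DMSO and 555 and 638 with entinostat. All BRCA1-null libraries were above all BRCA1+ libraries, by a small step. EPCAM was called in entinostat (log2 difference 0.21, SE 0.0657, adjusted p = 0.0294) and not in DMSO (0.099, interval -0.049 to 0.25, adjusted p = 0.258). Leaving out BRCA1-null entinostat replicate 2, the highest library, gave 0.11 (adjusted p = 0.202), and the call was also lost without BRCA1+ control replicate 1 (0.20, adjusted p = 0.05003), BRCA1+ entinostat replicate 1 (0.22, adjusted p = 0.0947) or BRCA1+ entinostat replicate 2 (0.19, adjusted p = 0.164), and in a fit of only the groups compared (0.20, adjusted p = 0.0597). The embedded MIR559 had 297 to 544 counts per library, and reads of a miRNA gene inside its host cannot be told apart from reads of the host.

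MSLN, a membrane-anchored protein of mesothelium and of many ovarian carcinomas on chromosome 16 (hg19, 810765 to 818865, plus strand), had 98.3 and 91.9 CPM in the BRCA1+ libraries with DMSO and 95.7 and 92.7 with entinostat, and 106 and 102 in the BRCA1-null libraries with DMSO and 114 and 96.5 with entinostat. BRCA1-null libraries were slightly above those of BRCA1+ within each treatment. With the replicate block the entinostat difference was called (0.16, adjusted p = 0.0495), and in the main fit none was. The main log2 values were 0.13 in DMSO (interval -0.052 to 0.32, adjusted p = 0.224) and 0.16 in entinostat (interval -0.024 to 0.35, adjusted p = 0.153). Without BRCA1-null entinostat replicate 2 the latter was 0.28 (adjusted p = 0.0252).

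WFDC2, on chromosome 20 (hg19, 44098394 to 44110172, plus strand), was not called between the lines in DMSO (log2 difference -0.11, interval -0.77 to 0.55, adjusted p = 0.790) or in entinostat (-0.35, interval -0.91 to 0.22, adjusted p = 0.311). With the replicate block the entinostat difference was called (-0.40, adjusted p = 0.0392).

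**Figure D2:**
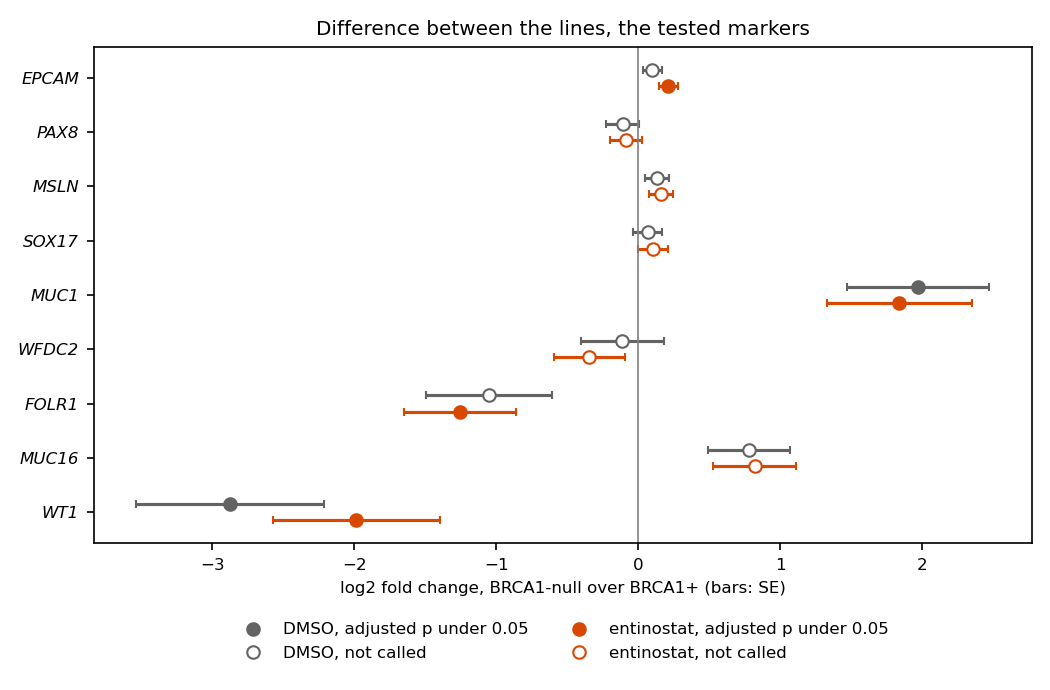
Log2 fold change of BRCA1-null over BRCA1+ for the 9 tested markers in DMSO and in entinostat, with SE bars. Filled symbols have an adjusted p under 0.05. MUC1 lies at 1.97 and 1.84 and WT1 at -2.87 and -1.98, whereas PAX8, SOX17, MSLN and EPCAM lie between -0.11 and 0.21.

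Over all 8 libraries, 3 markers (MUC16, MUC1 and EPCAM) had every BRCA1-null library above every BRCA1+ library and 1 (WT1) had every one below, of 9 tested. Among all tested genes 20.1% separated upward and 20.1% downward, so such a separation was common.

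Of the 9 tested markers, WFDC2 rose with entinostat and no other passed the test in the main fit. WFDC2 had 5.83 and 4.49 CPM in BRCA1+ control and 10.5 and 9.25 in BRCA1+ entinostat. In BRCA1-null cells it had 5.95 and 3.68 CPM in control and 9.43 and 5.84 in entinostat. The BRCA1+ groups did not overlap, and the BRCA1-null groups did, since control replicate 1 was above entinostat replicate 2.

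In BRCA1+ cells the log2 change of WFDC2 was 0.93 (SE 0.269, 95% interval 0.33 to 1.54, adjusted p = 0.0493), a 1.91-fold rise. The value in BRCA1-null cells was 0.70 (SE 0.270, interval 0.089 to 1.31, adjusted p = 0.132), and the mean over both lines was 0.82 (SE 0.190, interval 0.39 to 1.24, adjusted p = 0.0133). With the replicate block the rise in BRCA1-null cells was called as well (0.67, adjusted p = 0.0136). The call in BRCA1+ cells was lost when any of its 4 libraries was left out (adjusted p 0.0855 without control replicate 1, 0.236 without control replicate 2, 0.183 without entinostat replicate 1 and 0.146 without entinostat replicate 2), and with no filter on low counts the adjusted p was 0.0507. The mean over both lines stayed called in all 8 fits that leave out 1 library, with log2 values of 0.62 to 0.99.

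Among the 9 tested markers, entinostat gave 1 higher call in BRCA1+ cells and none in the BRCA1-null line. The corresponding shares of all tested genes were 14.1% in BRCA1+ cells (8.15% higher and 6.00% lower) and 10.8% in BRCA1-null cells (7.57% higher and 3.19% lower). For the mean over both lines 1 marker was called, against 26.1% of all genes (15.2% higher and 10.9% lower). The median log2 change over the markers was 0.018 in BRCA1+ cells and 0.042 in the BRCA1-null line, beside 0.00041 and 0.019 over all genes.

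With the replicate block, FOLR1 was called higher with entinostat in BRCA1+ cells (0.71, adjusted p = 0.0358) and in the mean of both lines (0.57, adjusted p = 0.0280). It was not called in the BRCA1-null line (0.44, adjusted p = 0.299). In the main fit the change of FOLR1 was 0.68 in BRCA1+ cells (SE 0.369, adjusted p = 0.267) and 0.47 in the BRCA1-null line (SE 0.474, adjusted p = 0.570). Both BRCA1+ entinostat libraries lay above both controls. The mean over the lines was 0.58 (interval -0.10 to 1.25, adjusted p = 0.197), and among the fits that leave out 1 library it passed only without BRCA1-null control replicate 1 (0.98, adjusted p = 0.0438). WT1 had a value of 0.98 in BRCA1-null cells with an SE of 0.910, from 5 and 9 counts, and 0.092 in BRCA1+ cells.

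Neither mucin showed a called change with entinostat. For MUC1 the log2 value was -0.0038 in BRCA1+ cells (interval -1.27 to 1.26) and -0.14 in BRCA1-null cells (interval -1.15 to 0.88), so that large changes in either direction lie inside the BRCA1+ interval. For MUC16 the intervals were -0.71 to 0.62 and -0.64 to 0.64. With upper-quartile factors the direction changed for MUC16 in both lines and for MUC1 in BRCA1+ cells. The direction for MUC1 in BRCA1-null cells changed only without BRCA1-null control replicate 1 (0.38).

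PAX8, SOX17, MSLN and EPCAM had narrow intervals around 0. The change of PAX8 with entinostat lay between -0.24 and 0.27 in BRCA1+ cells and between -0.21 and 0.30 in BRCA1-null cells. SOX17 lay between -0.35 and 0.12 and between -0.31 and 0.15, and MSLN between -0.20 and 0.17 and between -0.17 and 0.20. EPCAM was 0.022 in BRCA1+ cells (interval -0.13 to 0.17) and 0.14 in BRCA1-null cells (interval -0.013 to 0.28, adjusted p = 0.220), where both entinostat libraries stood above both controls. The mean over the lines for EPCAM (0.079, adjusted p = 0.252) passed, of the fits that leave out 1 library, only without BRCA1-null entinostat replicate 1 (0.13, adjusted p = 0.0481).

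**Figure D3:**
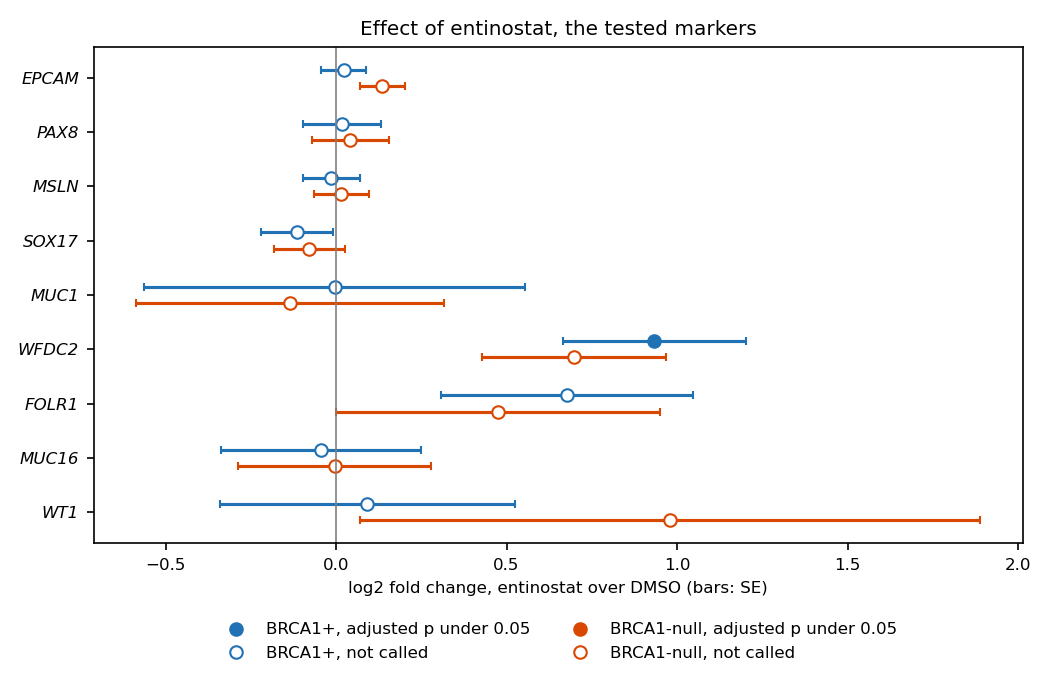
Log2 fold change of entinostat over DMSO for the 9 tested markers in each line, with SE bars. The filled symbol, WFDC2 in BRCA1+ cells at 0.93, is the only value with an adjusted p under 0.05, and the bar of WT1 in BRCA1-null cells (SE 0.910) reflects 5 and 9 counts.

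Whether the response to entinostat differed between the lines was tested with the interaction. It was called for 0 of the 9 markers and 0% of all tested genes by edgeR, with 827 genes (4.67%) at an unadjusted p under 0.05 and 11 genes called by DESeq2. The interaction of WFDC2 was -0.24 (interval -1.10 to 0.63, adjusted p = 0.980) and that of EPCAM was 0.11 (interval -0.096 to 0.32, adjusted p = 0.967).

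The markers varied between the 2 libraries of a group in a shared direction. In 7 of the 9 tested markers (PAX8, WT1, MUC16, MUC1, MSLN, FOLR1 and WFDC2) replicate 1 was above replicate 2 in all 4 groups, and 0 markers had replicate 1 below in all 4. Among all tested genes 14.3% had replicate 1 above in all 4 groups and 14.8% below. The ratio of replicate 1 to replicate 2 reached 4.78 for WT1, 3.02 for MUC1, 2.69 for FOLR1 and 1.94 for MUC16, and stayed between 0.870 and 1.03 for EPCAM. The numbers come from the sample titles, which do not say what libraries of the same number share. The main fits leave the number out and count any difference shared by number as error.

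**Figure D4:**
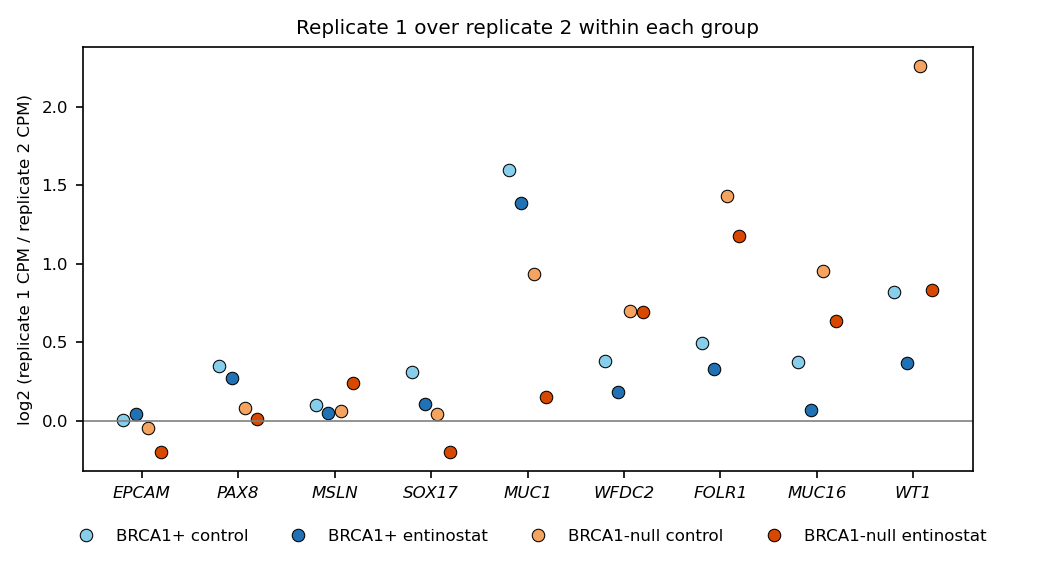
Log2 ratio of replicate 1 to replicate 2 within each group for the 9 tested markers, from CPM. All 4 groups lie above 0 for 7 markers. The spread is widest for WT1, which had 4 and 1 counts in BRCA1-null control, and for MUC1.

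Across the 8 libraries, the pairs of markers that varied most alike were WT1 and FOLR1 (Pearson r = 0.919 of log2 CPM), MUC16 and MSLN (0.895), MUC16 and MUC1 (0.862) and MUC1 and MSLN (0.796). These values describe 8 libraries that fall into 4 groups and share the replicate ordering given above. Among 10404 or 10405 candidate genes (mean log2 CPM 3 or more), those most like MUC16 were SLPI, a secreted protease inhibitor (0.988), STX3 (0.977) and IFITM3 (0.976). MUC1 was closest to TNFRSF1A, the TNF receptor (0.989), LRRC8A (0.986) and CDC42EP4 (0.984), and FOLR1 to IGFN1 (0.991), HES1 (0.990) and BCL6 (0.988). WFDC2 was closest to YPEL3 (0.982), DUSP10 (0.982) and SAT1 (0.980), and WT1 to FAM219A (0.996), DUSP1 (0.992) and COL4A4 (0.992). Since WT1 had 1 to 20 counts per library, its values, also that with FOLR1, rest on few reads and depend on the prior count. The 4 steady markers had lower values, with GLTSCR1 at 0.967 for PAX8, TP53I3 at 0.966 for MSLN, ENOPH1 at 0.961 for EPCAM and MZT2A at 0.944 for SOX17.

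Other genes of Müllerian development were examined as a list of 20, of which 16 were tested. In DMSO, 3 were higher and 7 lower in BRCA1-null cells, beside 21.1% and 21.0% of all tested genes, with a median of -0.33 (0.012 over all genes). LHX1, a LIM homeobox factor of the early duct, had 8 and 12 counts in BRCA1+ control and 344 and 658 in BRCA1-null control (log2 difference 5.40, SE 0.497, adjusted p = 4.43e-05). WNT7A, a Wnt ligand, was also higher (1.33, SE 0.137, adjusted p = 8.09e-05), as was HOXA11 (0.64, adjusted p = 0.0197). The HOXA11 call was lost without BRCA1+ control replicate 1 or BRCA1-null control replicate 2. WNT5A was lower (-1.78, adjusted p = 0.000298), and ESR1, the oestrogen receptor, had 9 and 9 counts against 2 and 0 (-3.22, adjusted p = 0.00973, a ratio of 10.5 with a counting interval of 2.51 to 93.0). In entinostat 4 were higher and 6 lower between the lines, beside 20.5% and 18.9% of all genes, and HOXA9 was among the lowest (-1.54, adjusted p = 9.75e-05).

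With entinostat, 1 of these 16 developmental genes was higher and 2 were lower in BRCA1+ cells, beside 8.15% and 6.00% of all genes. These 3 calls became 1 without BRCA1+ control replicate 1 or 2 or BRCA1+ entinostat replicate 1, 0 without BRCA1+ entinostat replicate 2, and 1 with the DESeq2 Wald test. In BRCA1-null cells 0 were called by edgeR, with 4 at an unadjusted p under 0.05 and 1 called by DESeq2, beside 10.8% of all genes called. The mean of both lines had 3 higher and 4 lower, beside 15.2% and 10.9%. HOXA10, a factor of uterine identity, was lower in the mean of both lines (-0.34, SE 0.0691, adjusted p = 0.00689). The mean lay between -0.39 and -0.30 in the 8 fits that leave out 1 library. Of the single lines HOXA10 was called in BRCA1+ cells only (-0.56, adjusted p = 0.00822), from 26.4 and 23.7 to 18.2 and 16.1 CPM. In BRCA1-null cells it had 24.9 and 23.5 CPM in control and 21.1 and 23.0 in entinostat. The interaction was called for 0 of the 16 genes. Other calls of the mean included DACH1 (1.47) and WNT5A (0.60) among the higher and HOXA9 (-0.36) and GATA3 (-0.41) among the lower. Each of these was lost in 4 to 7 of those 8 fits. DACH1 rested on few reads, with 3 and 4 counts in BRCA1+ control and 11 and 25 in BRCA1+ entinostat. In BRCA1-null cells it had 17 and 11 counts in control and 23 and 12 in entinostat. The 7 calls of the mean became 2 or 3 without any 1 of the 4 BRCA1+ libraries, BRCA1-null control replicate 2 or BRCA1-null entinostat replicate 1.

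A list of 28 other ovarian carcinoma antigens, 24 of them tested, had 9 higher and 5 lower genes in BRCA1-null control, beside 21.1% and 21.0% of all genes, with a median of 0.14. KLK10, a kallikrein protease, had 1 and 5 counts in BRCA1+ control and 51 and 42 in BRCA1-null control (log2 difference 3.69, SE 0.578, adjusted p = 0.000602), and SPP1 (2.91, adjusted p = 0.0448) rested on 2 and 5 against 48 and 15 counts and was lost in 5 fits that leave out 1 library. LCN2 was higher by 1.06 (adjusted p = 0.0272), a call lost without BRCA1+ control replicate 2 or BRCA1-null control replicate 1. The phosphate transporter SLC34A2, also an antibody target, fell from 374 and 379 CPM in BRCA1+ control to 84.3 and 41.2 in BRCA1-null control (-2.59, SE 0.349, adjusted p = 0.000382). The cadherin CDH6 was at 294 and 286 CPM against 83.8 and 51.3 (-2.11, SE 0.243, adjusted p = 0.000154), and E-cadherin CDH1 was lower by a smaller step (-0.49, adjusted p = 0.0121), lost without BRCA1+ control replicate 1 or BRCA1-null control replicate 2. Without BRCA1+ control replicate 2 the 14 calls in DMSO became 9. In entinostat 7 were higher and 7 lower, beside 20.5% and 18.9% of all genes, and these 14 became 8 to 9 without BRCA1+ entinostat replicate 1 or 2 or BRCA1-null entinostat replicate 1.

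With entinostat, the called antigens of that list were 11 higher and 0 lower in BRCA1+ cells, and 6 higher and 0 lower in the BRCA1-null line. The mean of both lines had 11 higher and 2 lower. The interaction was called for 0 of the 24 tested antigens (median -0.073), so the numbers of calls do not show that the response differed between the lines. The list median was 0.29 in BRCA1+ cells and 0.17 in the BRCA1-null line. CRABP2, a retinoic acid binding protein, had 0.93 and 1.26 CPM in BRCA1+ control and 4.48 and 7.05 in BRCA1+ entinostat, while BRCA1-null cells went from 2.29 and 2.24 CPM with DMSO to 13.1 and 7.78 with entinostat (mean of both lines 2.32, SE 0.250, adjusted p = 0.000391). CDH1 (0.57, adjusted p = 0.00200) and the adhesion molecule L1CAM (0.55, adjusted p = 0.000166) also rose in the mean of both lines, in all 8 fits that leave out 1 library. CDH6 (-0.60, adjusted p = 0.0295) and cyclin E1, CCNE1 (-0.34, adjusted p = 0.0348) were the 2 lower genes, lost in 6 and 5 of those fits. The 11 called in BRCA1+ cells became 5 without BRCA1+ control replicate 2, 6 without BRCA1+ entinostat replicate 1 and 3 without BRCA1+ entinostat replicate 2. Of all tested genes, 8.15% were higher in BRCA1+ cells, 7.57% in the BRCA1-null line and 15.2% in the mean of both lines, as given above.

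**Figure D5:**
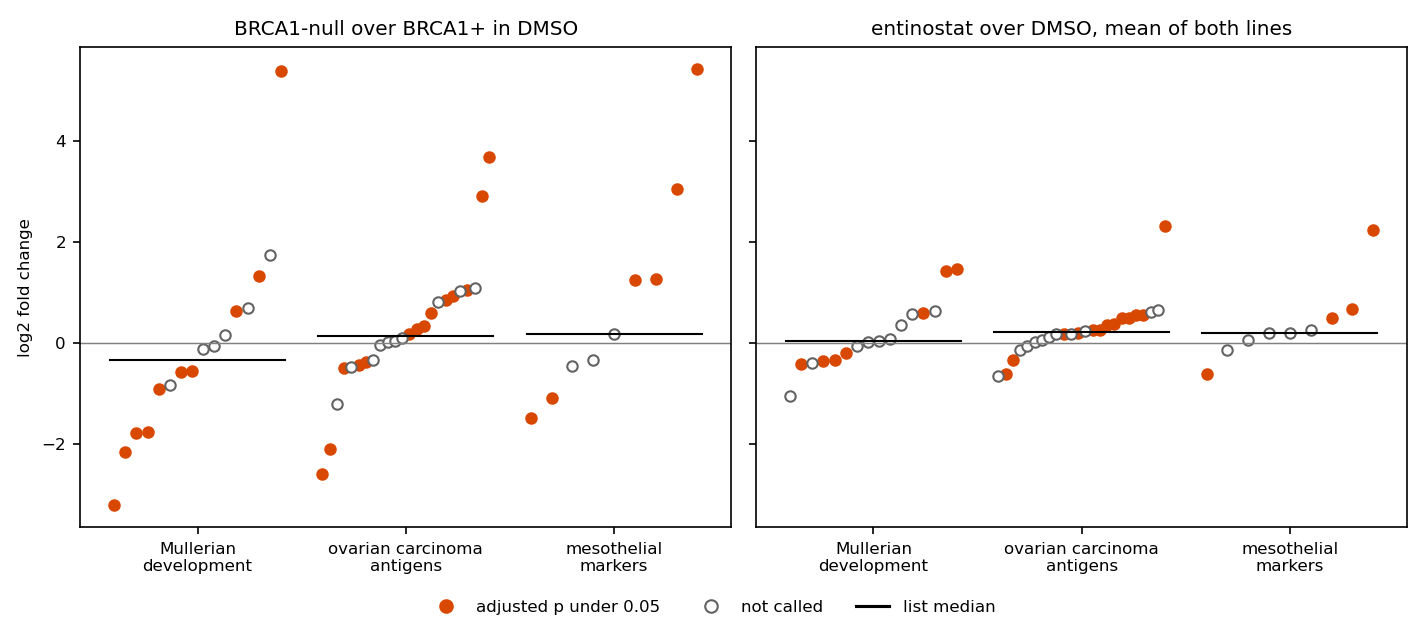
Log2 fold change of the tested genes of 3 lists for BRCA1-null over BRCA1+ in DMSO (left) and for entinostat over DMSO as the mean of both lines (right). Filled points have an adjusted p under 0.05 and lines are list medians. With entinostat 11 of 24 antigens were called higher and 2 lower (15.2% and 10.9% of all genes), and between the lines 3 of 16 Müllerian genes were called higher and 7 lower (21.1% and 21.0% of all genes).

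Since MSLN and WT1 are also mesothelial, 12 mesothelial markers were measured beside them, of which 9 were tested. Their summed level was 122 to 126 CPM (BRCA1+ with DMSO), 125 to 126 (BRCA1+ with entinostat), 179 to 192 (BRCA1-null with DMSO) and 163 to 178 (BRCA1-null with entinostat). This sum follows a few genes. In DMSO, PDPN had 62.2 and 56.8 CPM in BRCA1+ cells and 58.8 and 76.0 in BRCA1-null cells. THBD had 27.6 and 25.1 CPM against 69.9 and 56.3, and BNC1 3.38 and 3.12 against 19.7 and 33.5. The higher sum in BRCA1-null control came mostly from THBD and BNC1. In DMSO 4 were higher and 2 lower in BRCA1-null cells, beside 21.1% and 21.0% of all genes. Calretinin, CALB2, had 2 and 3 counts in BRCA1+ control and 121 and 142 in BRCA1-null control (5.43, SE 0.426, adjusted p = 9.07e-06), and BNC1 (3.05, adjusted p = 0.000152) and THBD (1.26, adjusted p = 3.73e-05) were higher. UPK3B (-1.49, adjusted p = 3.76e-05) and CPA4 (-1.08, adjusted p = 0.00690) were lower, the latter without a call when BRCA1+ control replicate 2 or BRCA1-null control replicate 2 was left out. Both ITLN1 and HAS1 had 0 counts in all 8 libraries. With entinostat 3 were higher and 1 lower in the mean of both lines, beside 15.2% and 10.9% of all genes. They were UPK3B (0.67, adjusted p = 0.00114), LRRN4 (0.50, adjusted p = 0.00371), GPM6A (2.25, adjusted p = 0.0126, lost without BRCA1+ control replicate 2 or BRCA1+ entinostat replicate 2) and THBD (-0.60, adjusted p = 0.00120). GPM6A rested on few reads, with 4 and 2 counts in BRCA1+ control and 3 and 16 in BRCA1+ entinostat. In BRCA1-null cells it had 4 and 1 counts in control and 15 and 16 in entinostat.

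Markers of other cells were measured in the same libraries. Of 8 genes of ciliated and secretory tubal cells 3 passed the filter, 0 were called in DMSO and 1, CCDC78 (0.68, adjusted p = 0.0361), was called between the lines in entinostat, a call lost in 6 fits that leave out 1 library. Of 12 markers of stromal, endothelial and blood cells, COL3A1, DCN and LUM had 0 counts in all 8 libraries. The summed level of the 12 was 27.7 to 34.3 CPM (BRCA1+ with DMSO), 64.1 to 71.4 (BRCA1+ with entinostat), 67.2 to 84.5 (BRCA1-null with DMSO) and 129 to 137 (BRCA1-null with entinostat), and the endothelial cadherin CDH5 made up part of it (4.15 and 6.82 CPM in BRCA1+ control, 26.8 and 46.7 in BRCA1-null control). In DMSO 4 of 7 tested markers of this kind were higher and 1 lower in BRCA1-null cells, beside 21.1% and 21.0% of all genes, and with entinostat 4 were higher in the mean of both lines, beside 15.2%. The libraries came from cultures of the UWB1.289 line and not from tissue. In such bulk samples fewer cells that express a gene and less RNA per cell cannot be told apart. The part of these markers in the differences above was not tested.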

How the data were processed

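Poly(A) RNA of 8 libraries was examined in 4 groups of 2, taken with their replicate numbers from the sample titles. The authors used TopHat 2 for alignment to hg19 and NGSUtils for counting, and the deposited values were raw counts per gene symbol without normalisation. Strand and multi-mapping rules of counting were not given in the sources used here. Gene coordinates and lengths were read from that table.

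CPM, levels and tests were computed with edgeR 4.0.16 in R 4.3.3 (TMM, filterByExpr, 1 quasi-likelihood model of the 4 groups with 4 degrees of freedom for error, Benjamini-Hochberg adjustment over 17714 genes, two-sided). The scripts were tested on simulated counts. Total counts per library were 31900158 to 53549893. Alternatives were other scalings, filters, DESeq2 1.42.0, fits on only the compared groups, a replicate block and the omission of each library.

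The markers and gene lists were chosen with earlier results of these data known. Named genes were the markers, up to 3 called genes highest and 3 lowest per list and comparison, the 3 most alike genes per marker, genes overlapping a marker, and BRCA1, of which a selection is printed. The values of 1 gene counted in the lists are not reported here. Likeness was Pearson's r of log2 CPM with a prior count of 2.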

Additional observations from a re-analysis of the deposited data

How the results depend on the processing

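The 54 values of the 9 markers in 6 comparisons were recomputed under the alternatives, which gave 786 values in all. Apart from leaving out a library, 316 values kept direction and side of the threshold, 22 changed sign, 11 gained and 5 lost a call. When 1 library was left out, 346 kept both, 56 changed sign, 10 gained and 20 lost a call. The cause of these changes was not tested. Depth limits EMX2 and WT1, which had at most 2 and 20 counts in a library.

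The number of markers called in DMSO was 1 with the stricter filter, which removed WT1, and 4 with a replicate block. In entinostat it was 1 with the DESeq2 Wald test (EPCAM kept), 2 with an added unadjusted p under 0.01 and 7 with the block. For entinostat in BRCA1+ cells it was 0 without a filter and 2 with the block, in BRCA1-null cells 1 with the block, and in the mean of both lines 2 with the block. Genes called were 4319 with the block for entinostat in BRCA1+ cells, and 3641 with the block and 693 with only the compared groups in BRCA1-null cells. The interaction had 11 genes with DESeq2 and 1 with the block.

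Leaving out 1 library gave 1 to 3 markers in DMSO, 0 to 5 in entinostat, 0 to 1 for entinostat in BRCA1+ cells, 0 in BRCA1-null cells and 1 to 2 in their mean. Genes called ranged over 5309 to 7387, 4529 to 6917, 679 to 2414, 512 to 1595 and 3059 to 4008 in the same order, with 0 for the interaction.

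The replicate block was tried because the titles give each group numbers 1 and 2. Deviations of same-numbered libraries correlated positively in all 6 pairs of groups, at 0.0523 to 0.287, and 4 of the 6 were over 0.1. The main fits left the number out because the titles do not say what it marks. Their p-values thus count any difference shared by libraries of the same number as error. With the replicate block 8 further values of the markers were called and 0 calls were lost. Between the lines these were MUC16 (0.73, adjusted p = 0.00334) and FOLR1 (-1.06, adjusted p = 0.00674) in DMSO, and MUC16 (0.77, adjusted p = 0.00279), WFDC2 (-0.40, adjusted p = 0.0392) and MSLN (0.16, adjusted p = 0.0495) in entinostat. With entinostat they were WFDC2 in BRCA1-null cells (0.67, adjusted p = 0.0136) and FOLR1 in BRCA1+ cells (0.71, adjusted p = 0.0358) and in the mean of both lines (0.57, adjusted p = 0.0280).

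Values that changed sign were uncalled and small. In BRCA1+ cells with entinostat they were MUC16 0.00279, MUC1 0.0422 and MSLN 0.0338 with upper-quartile factors, MUC1 0.0183 and MSLN 0.00981 with the stricter filter, and MUC1 0.0324 with DESeq2, 0.0333 with the block and 0.000149 with only the compared groups. In BRCA1-null cells they were MUC16 0.00373 with upper-quartile factors and 0.0191 with the block, and MSLN -0.00558 with only the compared groups. In the mean of both lines they were MUC16 0.00326 with upper-quartile factors and 0.0017 with the block, and MSLN -0.00194 with DESeq2 size factors, -0.00318 without a filter and -0.00218 with the DESeq2 test. For the interaction they were PAX8 -0.018, SOX17 -0.00751 and MSLN -0.0123 with upper-quartile factors, and PAX8 -0.0117, SOX17 -0.000399 and MSLN -0.00614 with the stricter filter.

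When 1 library was left out, the signs that changed lay in these ranges. Between the lines in DMSO they were -0.27 to 0.072 for PAX8, -0.080 to 0.23 for SOX17 and -0.46 to 0.22 for WFDC2, and in entinostat -0.22 to 0.042 for PAX8. With entinostat in BRCA1+ cells they were -0.15 to 0.20 for PAX8, -0.29 to 0.53 for WT1, -0.26 to 0.047 for SOX17, -0.22 to 0.15 for MUC16, -0.80 to 0.98 for MUC1 and -0.061 to 0.035 for MSLN. In BRCA1-null cells they were -0.18 to 0.018 for SOX17, -0.41 to 0.52 for MUC16, -0.53 to 0.38 for MUC1, -0.11 to 0.13 for MSLN and -0.25 to 1.28 for FOLR1. In the mean of both lines they were -0.052 to 0.12 for PAX8, -0.23 to 0.24 for MUC16, -0.47 to 0.42 for MUC1 and -0.062 to 0.059 for MSLN. For the interaction they were -0.17 to 0.19 for PAX8, -0.13 to 0.18 for SOX17, -0.36 to 0.56 for MUC16, -1.12 to 0.65 for MUC1, -0.098 to 0.14 for MSLN, -0.93 to 0.60 for FOLR1 and -0.63 to 0.10 for WFDC2.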
